A study of Mus musculus with 22 samples.

Results

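Pregnancy was compared with its absence in the livers of conventional mice, which carry an ordinary gut microbiota. The comparison takes the 5 libraries labelled conventional and pregnant and the 6 labelled conventional and non-pregnant, 11 of the 22 libraries of a series that also sampled germ-free mice, and covers all 15928 genes tested. Genes for drug-metabolising enzymes and transporters are counted (323 of those tested) but not described. All animals were female C57BL/6 mice on the same autoclaved breeder chow, with no genetic change and no drug named in the labels. Conventional females were paired with males for a single night at 8 weeks of age, and livers of pregnant mice were collected on gestation day 15. The age label, whose unit is not stated, was 70 for 2 pregnant and 2 non-pregnant mice and 77 for 3 pregnant and 4 non-pregnant mice. The germ-free mice, used below only as a second pregnancy comparison, were mated over 72 h at 11 to 15 weeks, so that their gestation day was assumed, and carried age labels of 91 to 121.

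The liver of a pregnant mouse grows and works under placental lactogens, prolactin, growth hormone, sex steroids and glucocorticoids. Prolactin and growth hormone bind the related receptors Prlr and Ghr, which act through the kinase Jak2 and the transcription factors Stat5a, Stat5b and Stat3, and the Socs and Cish proteins damp the signal. Hepatocytes also make most plasma proteins, dispose of amino acid nitrogen, and store or burn fat, and each of these tasks has its own set of genes, by which the results are ordered below.

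Libraries held 18064491 to 30036912 estimated counts, and levels are given as CPM, counts scaled to a common library size. Hepatocyte markers were abundant: all 10 listed were measured, with a summed level of 65164 to 96994 CPM in non-pregnant and 72645 to 242662 CPM in pregnant mice. Most of that sum was Alb, the albumin gene. The list's mean log2 CPM overlapped, at 11.2 to 11.81 in non-pregnant and 10.78 to 11.84 in pregnant mice. Of 12 placental or decidual marker genes, 1 passed the filter on low counts. Pregnant replicate 2 stands apart. In it 666 of 15928 genes lay more than 4-fold above the median of the other pregnant libraries, against 33 to 198 genes in each of those. Its summed neutrophil and monocyte markers reached 106 CPM, against 4.23 to 8.99 CPM in the other pregnant and 5.61 to 9.14 CPM in the non-pregnant libraries. T and NK cell markers summed to 55.6 CPM in it, against 6.88 to 10.0 CPM in the other pregnant libraries. The serum amyloid gene Saa3 stood at 831.6 CPM there and at 3.35 to 8.56 CPM in the other 10 libraries. Calls were therefore made with and without this library, and "in both fits" below means called each time. In bulk tissue, fewer cells of a type and less RNA per cell cannot be told apart.

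With all libraries, 875 genes were called higher in pregnancy (5.49% of 15928 tested) and 561 lower (3.52%), at an adjusted p under 0.05 in edgeR's quasi-likelihood test with Benjamini-Hochberg adjustment. Without pregnant replicate 2, 669 of 16155 genes were higher (4.14%) and 377 lower (2.33%). A total of 602 genes (3.78%) were called higher and 339 (2.13%) lower in both fits, and no gene was called in opposite directions. Among the both-fit calls, 573 of the higher and 303 of the lower genes were outside the drug-processing names. All 5 pregnant libraries lay above all 6 non-pregnant ones for 410 genes (2.57%), and below them for 380 (2.39%). The median log2 change of all genes tested was 0.04, and 0.01 without that library. Among both-fit calls, 336 of the higher genes and 165 of the lower ones changed more than 2-fold.

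**Figure D1:**
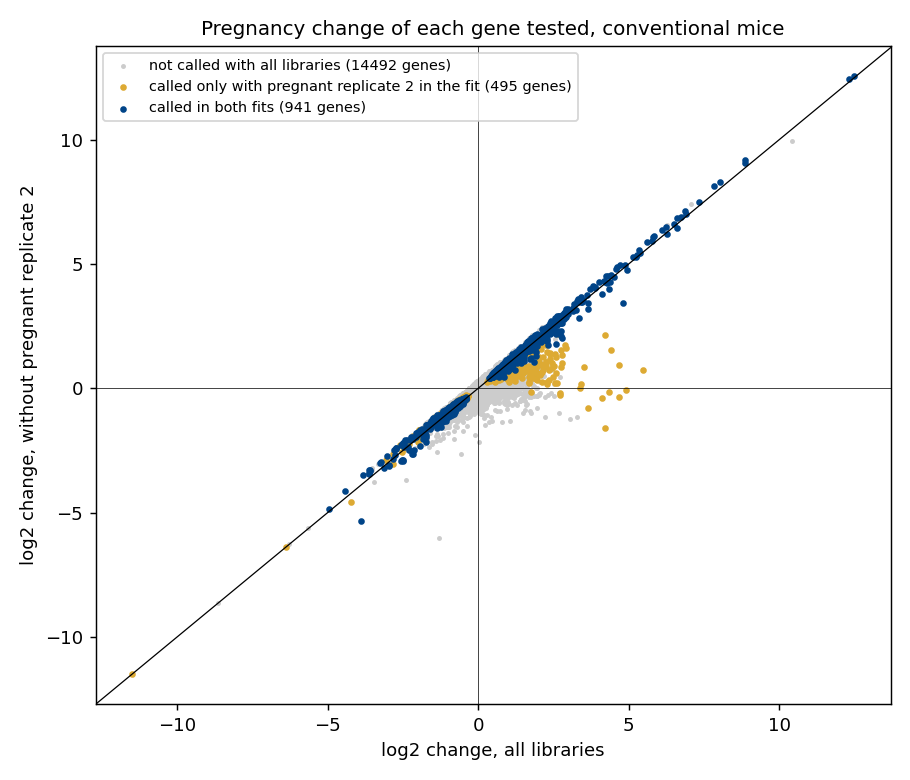
Log2 pregnancy change of each gene tested with all libraries (x axis) and without pregnant replicate 2 (y axis); the diagonal marks equal values, and colours mark the calls. The 941 genes called in both fits follow the diagonal, and many of the 495 genes called only with replicate 2 in the fit lie to the right of it, near 0 on the y axis.

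Receptors for prolactin and growth hormone rose, while the kinase and most transcription factors below them did not pass the test. Prlr, the prolactin receptor, stood at 928, 646, 2073, 1794 and 1870 CPM in pregnant replicates 1 to 5, against 187 to 303 CPM (median 216) in non-pregnant mice. Every pregnant library was above every non-pregnant one, and replicates 1 and 2, the pregnant mice with the age label 70, were the lowest. The log2 change was 2.69 ± 0.26 (approximate SE derived from the F statistic, adjusted p = 2.01e-07), and 2.88 without replicate 2. Ghr, the growth hormone receptor, stood at 860, 542, 2783, 2365 and 2291 CPM in the pregnant libraries and at 277 to 418 CPM (median 333) in the non-pregnant ones. Again no libraries overlapped and the same 2 pregnant mice were lowest. The log2 change of Ghr was 2.40 ± 0.29 (adjusted p = 5.76e-06). Both genes lie on mouse chromosome 15 of GRCm38, Prlr at 10177238 to 10349180 and Ghr at 3317760 to 3583492.

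Of 19 genes of prolactin and growth hormone signalling tested, 6 rose and 1 fell, and 4 and 1 did so in both fits. Over all genes, 3.78% rose and 2.13% fell in both fits. The list's median log2 change was 0.69, and 0.35 without replicate 2. Stat3, a transcription factor of cytokine receptors, rose by 0.73 in log2 terms (adjusted p = 0.0105). Onecut1, a hepatocyte factor that growth hormone regulates, stood at 20.1 to 43.2 CPM in pregnant and 4.13 to 19.6 CPM in non-pregnant mice and rose by 1.36 ± 0.37. Bcl6, a repressor that opposes Stat5 at liver genes, fell by 1.18 ± 0.27 on the log2 scale (adjusted p = 0.00696), with values of 4.29 to 7.26 CPM against 5.27 to 20.6 CPM that overlapped. Jak2, Stat5a and Stat5b had log2 changes of 0.15, 0.04 and -0.04 with adjusted p-values of 0.554, 0.953 and 0.929. Not called were the inhibitors or targets Socs2 (log2 1.19, adjusted p = 0.0664), Cish (log2 0.42, adjusted p = 0.589) and the growth factor Igf1 (log2 -0.35, adjusted p = 0.405). Socs1, another inhibitor, was called only with replicate 2, where it reached 36.2 CPM against 0.105 to 0.612 CPM in the other pregnant libraries.

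Stat5 binds DNA at the palindrome TTCNNNGAA, which reads the same on both strands. RefSeq promoter windows (GRCm38.p6, 250 bases before to 50 after a gene's start) were matched by symbol for 445 of the 602 genes higher in both fits, 248 of the 339 lower and 11329 of all symbols tested. The palindrome was present in 29 of 580 windows of higher genes (5%), in 25 of 311 windows of lower genes (8.04%), and in 1036 of 14463 windows of all genes tested (7.16%). Some both-fit genes described here that hold the palindrome were picked by name as examples, and they are not a full list. The following stretches of 120 bases, all before the start site, belong to these examples. They run 5′ to 3′ on the gene's strand, and capitals mark the palindrome.
Prlr, chr15:10223740-10223859, plus strand: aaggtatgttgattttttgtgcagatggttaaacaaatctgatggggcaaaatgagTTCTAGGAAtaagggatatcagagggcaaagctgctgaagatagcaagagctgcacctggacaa
A1bg, chr15:60921291-60921410, minus strand: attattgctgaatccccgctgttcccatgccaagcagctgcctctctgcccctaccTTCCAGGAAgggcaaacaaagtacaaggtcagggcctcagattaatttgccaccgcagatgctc
Itih4, chr14:30886356-30886475, plus strand: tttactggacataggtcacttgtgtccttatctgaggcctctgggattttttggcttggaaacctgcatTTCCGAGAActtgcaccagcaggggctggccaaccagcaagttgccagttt
Bcl6, chr16:23981348-23981467, minus strand: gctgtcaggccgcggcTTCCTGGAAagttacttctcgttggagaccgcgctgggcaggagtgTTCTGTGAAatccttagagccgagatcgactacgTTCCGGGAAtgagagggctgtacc
The Prlr stretch precedes 1 of its 3 listed starts and the Bcl6 stretch 1 of its 2, of which the other has 1 copy 118 bases before it. The Bcl6 stretch shown holds 3 copies between 168 and 88 bases before its start, and the Prlr stretch holds 1 copy 110 bases before its own. The windows of Ghr, Lifr, Alb and Cp in the table hold none. A match describes these letters only.

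Several genes with large rises had very low levels in the livers of non-pregnant mice. Serpina16, a serine protease inhibitor family member, stood at 0.29, 4.11, 18.5, 10.6 and 12.2 CPM in pregnant replicates 1 to 5 and at 0 to 0.063 CPM in the 6 non-pregnant livers, where 2 counts were seen in all. Replicate 1 was far below the other pregnant libraries. Its log2 change was 8.87 ± 0.93 (adjusted p = 7.92e-07), and the ratio of pooled CPM was 611, with a 95% counting interval of 169 to 5052 that leaves out the spread between mice. Sorcs3, a neuronal sorting receptor, had a pooled ratio of 184 (78.4 to 567.8), with 2.93 to 9.61 CPM in pregnant mice. Nptx1, a neuronal pentraxin, had one of 122.8 (70.0 to 238), with 1.75 to 16.8 CPM. All 3 came from a ranking by size of change that took only genes whose groups do not overlap.

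Another 4 genes from that ranking had diverse known roles. Dnah11, a dynein heavy chain of cilia, rose by 6.59 ± 0.59 in log2 terms, to 5.34 to 44.0 CPM. Pnpla5, of a lipase family, rose by 6.52 ± 0.64. Colgalt2, a collagen galactosyltransferase, rose by 5.27 ± 0.40, and Crybb3, a crystallin best known from the lens, by 5.25 ± 0.46. Several more genes that the ranking by size did not select, and that were chosen after their values were seen, also rose. Lifr, the receptor of leukemia inhibitory factor, stood at 2016, 2493, 4040, 4471 and 4972 CPM against 232 to 389 CPM (median 278). No library overlapped, and the log2 change was 3.63 ± 0.23 (adjusted p = 3.15e-10). Gm7086, annotated as a transcribed unprocessed pseudogene on chromosome 15 (60742858 to 60746535), stood at 2500 to 11305 CPM in pregnant and 0.127 to 3.69 CPM in non-pregnant mice. Its gene model ends 150.3 kb from that of A1bg, a female-biased plasma protein gene that also rose. Dnajc12, a co-chaperone of aromatic amino acid hydroxylases, rose by 4.37 ± 0.27, the magnesium transporter gene Slc41a2 by 4.93 ± 0.49, and the imprinted zinc finger gene Peg3 by 3.30 ± 0.33.

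**Figure D2:**
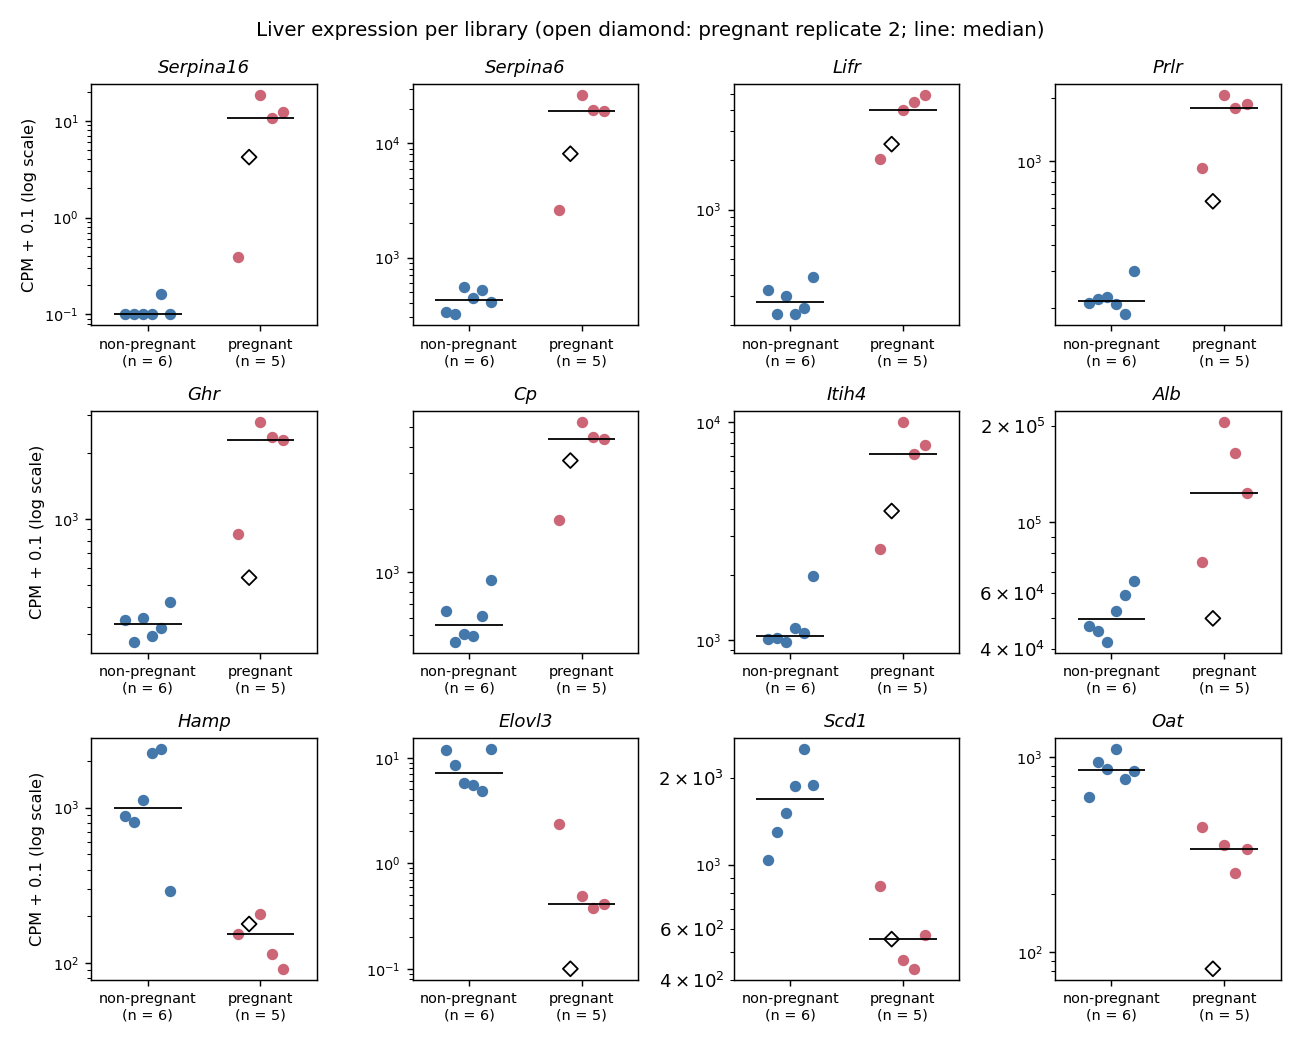
CPM plus 0.1 on a log axis for 12 genes, with 1 point per library, a line at each group's median and an open diamond for pregnant replicate 2. In 11 of the 12 panels the groups do not overlap; Alb is the exception, where pregnant replicate 2 at 50011 CPM lies among the non-pregnant libraries.

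Genes of secreted plasma proteins rose, and some reached very high levels. Serpina6, which encodes corticosteroid-binding globulin, stood at 2633, 8104, 26642, 19728 and 19122 CPM in pregnant replicates 1 to 5 and at 319 to 555 CPM (median 429) in non-pregnant mice. All pregnant libraries were above all non-pregnant ones, with replicate 1 far below the other pregnant libraries. The log2 change was 5.14 ± 0.42 (adjusted p = 1.84e-08), and Serpina6 took 0.315% to 2.19% of all counts in pregnant mice against 0.0339% to 0.0656%. Per kilobase of exon model, its mean level was 8657 CPM in pregnancy, against 52863 for albumin, and 245 without pregnancy, against 22271 for albumin. Alb, the albumin gene, stood at 74933, 50011, 206077, 164764 and 123236 CPM against 42302 to 65669 CPM (median 49916). Replicate 2 lay within the non-pregnant range and the other 4 above it. Alb rose by 1.25 ± 0.28 in log2 terms (adjusted p = 0.00535), and by 1.45 without replicate 2.

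Of 18 plasma carrier genes, 7 rose and 1 fell, 6 and 1 of them in both fits, against 3.78% and 2.13% of all genes. The list's median log2 change was 0.51. Cp, the copper-carrying ferroxidase ceruloplasmin, stood at 1780 to 5273 CPM against 463 to 920 CPM and rose by 2.67 ± 0.25. Trf, the iron carrier transferrin, rose by 1.09 ± 0.21, with values of 14580 to 31303 CPM against 8707 to 17591 CPM that overlapped. A1bg rose by 3.44 ± 0.88, and 1 non-pregnant library reached 1216 CPM while the non-pregnant median was 67.6 CPM. Ttr, the thyroxine and retinol-binding protein carrier transthyretin, went the other way: it stood at 968 to 2038 CPM against 3086 to 5047 CPM and fell by 1.46 ± 0.24 on the log2 scale, with no overlap. Afp, a fetal albumin relative, was not called (log2 0.33, adjusted p = 0.471). Hpx, the heme carrier hemopexin, was called only with replicate 2, at 13356 CPM there and 2050 to 5612 CPM in the other pregnant libraries.

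The Serpina genes showed 6 of 18 members higher and none lower, 5 of them in both fits, against 3.78% of all genes. Serpina10, an inhibitor of coagulation factor X, rose by 1.19 ± 0.16, Serpina11 by 1.28 ± 0.24, and Serpina1e, one of several near-identical alpha-1 antitrypsin copies, by 3.14 ± 0.83. Serpina6, Serpina10 and Serpina16 are neighbours on chromosome 12, with gaps of 15.2 kb and 11.6 kb from Serpina6, and Serpina1e and Serpina11 follow at 289.7 kb and 323 kb. Values of single Serpina1 copies are uncertain, because reads shared between copies were divided by estimation.

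Blood clotting genes rose in the same mice. Of 24 tested, 9 rose and none fell, against 5.49% and 3.52% of all genes. In both fits 7 rose, against 3.78% of all genes. The list's median log2 change was 0.48. F7, the starter of the extrinsic pathway, stood at 313, 273, 680, 638 and 572 CPM against 121.5 to 199 CPM (median 144). The groups did not overlap, and F7 rose by 1.69 ± 0.20 in log2 terms (adjusted p = 4.24e-06). F2 (prothrombin), F10 and F11 rose by 0.98, 0.89 and 0.85. F11 lost its call without pregnant replicate 3 (adjusted p = 0.0797). Among 21 complement genes, 3 rose and 1 fell in both fits, against 3.78% and 2.13% of all genes. C9, the pore-forming component, stood at 52.4, 67.9, 10.3, 10.2 and 18.0 CPM against 106 to 252 CPM and fell by 2.17 ± 0.39 on the log2 scale. Cfi, a protease that inactivates complement, rose by 0.90 ± 0.21.

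Genes of protein folding and export in the endoplasmic reticulum rose in the same livers. Of 36 tested, 20 rose and none fell, 15 of them in both fits, against 5.49% of all genes called higher; the median log2 change was 0.59, and 0.57 without replicate 2. The mean log2 CPM of the list was 6.50, 7.09, 6.87, 6.74 and 6.98 in pregnant replicates 1 to 5 and 5.85 to 6.56 in non-pregnant mice. Only pregnant replicate 1 fell within the non-pregnant range. Creld2, a stress-induced folding factor, stood at 36.4 to 73.4 CPM against 9.27 to 26.6 CPM and rose by 1.54 ± 0.26. Sdf2l1, a cofactor of the chaperone BiP, rose by 1.57 ± 0.37, and Pdia6, a disulfide isomerase, by 1.19 ± 0.20. Xbp1 and Herpud1, a regulator and a target of the unfolded protein response, were not called (log2 0.29 and -0.35). None of 79 cytosolic ribosomal protein genes was called, and 1 of 35 ribosome biogenesis genes, the helicase gene Ddx18, rose in both fits, by 0.57 ± 0.13.

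**Figure D3:**
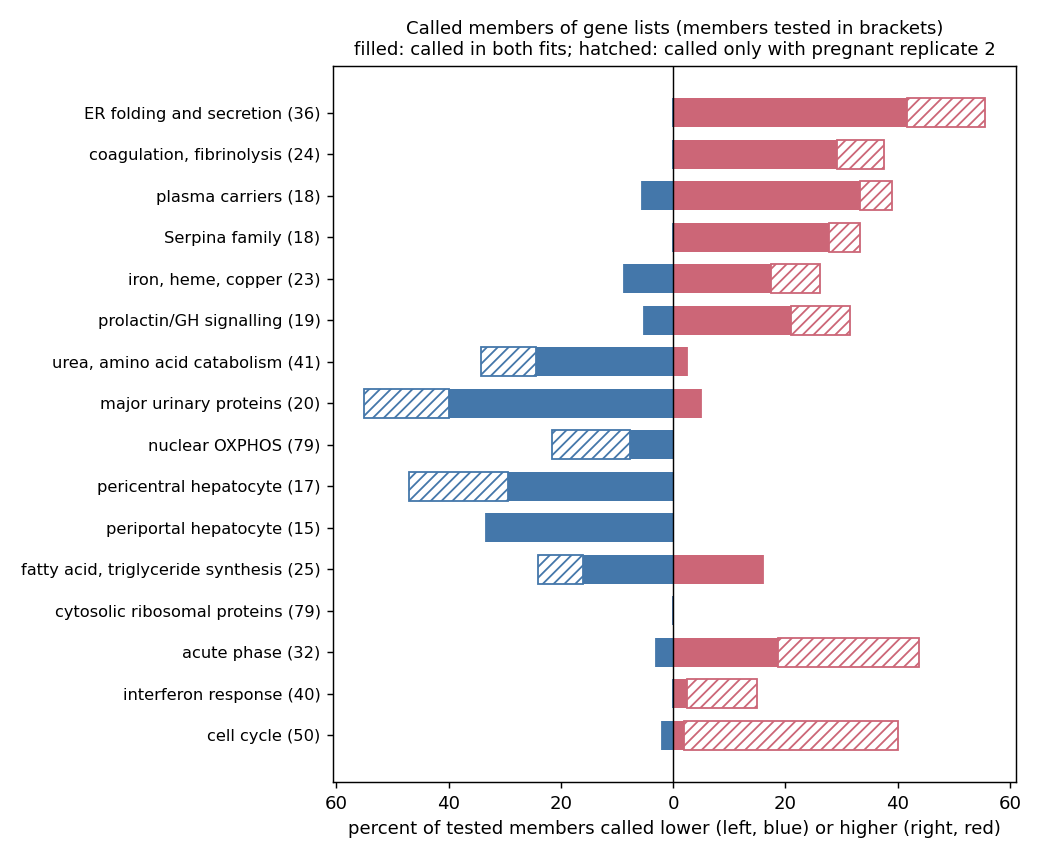
Percent of tested members of 16 gene lists called higher (right) or lower (left), filled where called in both fits and hatched where called only with pregnant replicate 2. Folding, clotting and plasma carrier genes reach right mostly in filled bars, amino acid catabolism and major urinary protein genes reach left, and the cell cycle bar is almost wholly hatched.

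Iron genes changed in both directions. Hamp, which encodes the iron hormone hepcidin, stood at 154, 179, 207, 114 and 92.0 CPM against 293 to 2382 CPM (median 1002). All pregnant libraries lay below all non-pregnant ones, although non-pregnant values spread widely, and Hamp fell by 3.11 ± 0.81 on the log2 scale (adjusted p = 0.0160). Slc40a1, the iron exporter ferroportin that hepcidin blocks, rose by 0.53 ± 0.12, and Slc39a14, an importer of zinc and iron, by 1.08 ± 0.17. Of 23 genes of iron, heme and copper handling, 6 rose and 2 fell, 4 and 2 of them in both fits. Over all genes, 3.78% rose and 2.13% fell in both fits. Erythroid genes moved too: of 11 markers tested 2 rose in both fits, Alas2, which makes heme in red cell precursors (log2 1.45), and Slc4a1, the red cell anion exchanger (2.75). Their part in the iron result was not tested. The metallothionein genes Mt1 and Mt2, which bind zinc and copper, rose by 1.67 ± 0.48 and 2.82 ± 0.47. Mt2 stood at 209 to 763 CPM against 13.5 to 138 CPM, with no overlap. Mt1 overlapped and lost its call without pregnant replicate 3 or 4 or non-pregnant replicate 1, 2, 3 or 5 (adjusted p = 0.0535 to 0.112).

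Genes that break down amino acids fell. Of 41 genes of the urea cycle and amino acid catabolism, 14 fell and 1 rose, 10 and 1 of them in both fits, against 3.52% of all genes called lower. The median log2 change was -0.41, and -0.32 without replicate 2. Prodh, which opens proline breakdown, stood at 86.1, 16.9, 59.4, 59.0 and 49.5 CPM against 115 to 256 CPM (median 222). No library overlapped, replicate 2 was lowest, and Prodh fell by 1.92 ± 0.33 on the log2 scale (adjusted p = 4.55e-04). Sds, serine dehydratase, fell by 1.93 ± 0.43 and Oat, ornithine aminotransferase, by 1.55 ± 0.30, both without overlap. Ass1, the urea cycle enzyme argininosuccinate synthase, stood at 423 to 2080 CPM against 1837 to 4530 CPM, overlapped, and fell by 1.17 ± 0.32. Ass1 lost its call without pregnant replicate 4 (adjusted p = 0.0614). Tdo2, which opens tryptophan breakdown, fell by 1.45 ± 0.26. Tat, tyrosine aminotransferase, was the member that rose (log2 0.81).

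Among amino acid transporters, Slc38a4 and Slc7a2, which carry neutral and cationic amino acids, fell by 1.96 ± 0.27 and 1.46 ± 0.29, and Slc43a1, a carrier of large neutral amino acids, rose by 1.42 ± 0.28. The serine and asparagine synthesis genes Psat1 and Asns were called higher only with replicate 2, at 15.8 and 11.8 CPM there, against 0.557 to 1.73 and 0.278 to 1.31 CPM in the other pregnant libraries. Smox, spermine oxidase, rose by 2.25 ± 0.22 with no overlap, and Azin2, an antizyme inhibitor, fell by 1.46 ± 0.34.

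Lipid genes moved in opposite directions within the same pathway. Among the 25 tested genes that build fatty acids and triglycerides, 4 rose and 6 fell, 4 and 4 of them in both fits. Over all genes, 3.78% rose and 2.13% fell in both fits. Scd1, which makes monounsaturated fatty acids, stood at 844, 552, 465, 436 and 571 CPM against 1034 to 2513 CPM (median 1687). Pregnant libraries were all lower, and Scd1 fell by 1.55 ± 0.26 on the log2 scale (adjusted p = 4.24e-04). Elovl3, an elongase of long-chain fats that is higher in males, fell by 3.59 ± 0.71 and stood at 4.73 to 12.0 CPM without pregnancy and at most 2.28 CPM with it. Fads1 and Fads2, the desaturases for polyunsaturated fatty acids, rose by 1.25 ± 0.21 and 1.17 ± 0.32. Fads2 lost its call without pregnant replicate 5 or non-pregnant replicate 2 or 4 (adjusted p = 0.0557 to 0.0740). Pnpla3, a lipid droplet acyltransferase and lipase, rose by 3.15 ± 0.65, at 5.93 to 24.7 CPM against 0.0492 to 4.25 CPM. Cd36, a fatty acid importer, rose by 1.26 ± 0.20 without overlap.

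Among 25 lipoprotein genes, 3 rose and 2 fell, and 2 and 1 did so in both fits, against 3.78% and 2.13% of all genes. Apoa4 rose by 1.11 ± 0.21, without overlap. Apoc2, the cofactor of lipoprotein lipase, rose by 2.92 ± 0.81, but pregnant replicate 4 stood at 21.5 CPM, within the non-pregnant range of 5.84 to 84.2 CPM, and the call was lost without pregnant replicate 3 (adjusted p = 0.0700) or non-pregnant replicate 5 (0.0507). Mfsd2a, which carries lysophospholipids with omega-3 fatty acids, stood at 10.0, 0.35, 4.28, 6.10 and 6.12 CPM against 21.3 to 90.8 CPM and fell by 3.02 ± 0.66.

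In glucose metabolism, 4 of 31 genes fell and 1 rose, 3 and 1 of them in both fits, against 2.13% and 3.78% of all genes. Ldha, lactate dehydrogenase, rose by 1.14 ± 0.20, at 674 to 1575 CPM against 337 to 614 CPM. Pck1, which commits carbon to gluconeogenesis, stood at 491 to 1113 CPM against 1080 to 1611 CPM, overlapped by pregnant replicate 1, and fell by 1.00 ± 0.23. The hepatokine gene Fgf21 and the insulin-like growth factor binding protein gene Igfbp1 were called only with replicate 2. Igfbp1 stood at 53.4, 256, 34.4, 23.5 and 10.1 CPM against 3.31 to 26.0 CPM, and without that library its log2 change was 1.62 (adjusted p = 0.0812).

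Nuclear genes of oxidative phosphorylation had lower values as a group. Of 79 tested, 17 fell and none rose, against 3.52% of all genes called lower, and 6 fell in both fits, against 2.13%. The median log2 change was -0.50, and -0.46 without replicate 2. Ndufs7, a subunit of complex I, stood at 43.4, 43.0, 41.7, 25.1 and 37.3 CPM against 59.2 to 119 CPM and fell by 1.15 ± 0.20 without overlap. The list's mean log2 CPM was 6.14, 6.26, 6.76, 6.37 and 6.42 in the pregnant libraries and 6.399 to 7.38 in the non-pregnant ones, so that the groups overlapped. None of the 13 mitochondrially encoded genes was called. Their share of counts was 5.9% to 15.7% in pregnant and 8.44% to 23.6% in non-pregnant mice, and its part in the result was not tested. With those genes left out before scaling, 822 genes were higher and 650 lower.

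Sex-biased and zoned hepatocyte genes changed as well. Of 20 major urinary protein genes, 11 fell and 1 rose, 8 and 1 of them in both fits, against 2.13% and 3.78% of all genes. The list's median log2 change was -2.30. Mup11 stood at 122.6, 28.5, 182, 83.3 and 132 CPM against 856 to 2332 CPM (median 1243). The groups did not overlap, which the ranking by size required, and Mup11 fell by 3.63 ± 0.68 on the log2 scale (adjusted p = 0.00112). Mup20, a male pheromone, fell by 2.51 ± 0.53, and Mup21 rose by 2.88 ± 0.46. These genes are near-identical copies, so single members are uncertain. Of 11 female-biased genes, 4 rose in both fits, among them Treh, a trehalase, by 3.44 ± 0.46.

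Genes of both ends of the liver lobule fell. Of 17 pericentral genes, 8 fell (5 in both fits), and of 15 periportal genes, 5 fell in both fits. Over all genes, 3.52% were called lower, and 2.13% in both fits. The lists share genes with the amino acid results above: Oat is in the pericentral list, and Sds and Ass1 are in the periportal one. Lect2, a secreted factor of pericentral hepatocytes, stood at 47.1, 38.0, 62.2, 41.8 and 40.6 CPM against 101 to 174 CPM (median 139). No library overlapped, and Lect2 fell by 1.60 ± 0.18 (adjusted p = 2.51e-06). Notum, a Wnt inhibitor that Wnt signalling induces, fell by 1.35 ± 0.32. Foxa1, a hepatocyte transcription factor, fell by 1.08 ± 0.19, and Gata6, another liver factor, rose by 1.23 ± 0.23. The estrogen receptor gene Esr1 was not called (log2 0.27, adjusted p = 0.352). Gadd45b, a stress-response gene, rose by 2.66 ± 0.34.

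Other genes fell without belonging to any of these lists. Adgrf1, an adhesion receptor, had the largest fall by the ranking by size: it stood at 0.29, 1.23, 0.111, 0.0697 and 0 CPM against 3.25 to 7.60 CPM and fell by 3.88 ± 0.56. Chosen after their values were seen, Rarres2, which encodes the adipokine chemerin, fell by 1.84 ± 0.22, Gpx1, a glutathione peroxidase, by 1.44 ± 0.21, and Ang, angiogenin, by 1.82 ± 0.26. In each of these 3 all pregnant libraries were below all non-pregnant ones.

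Proliferation, inflammation and interferon genes depended on pregnant replicate 2. Of 50 cell cycle genes, 20 rose with all libraries and 1, E2f2, in both fits, against 5.49% and 3.78% of all genes. The list's median log2 change was 1.27 with that library and 0.34 without it. Mki67, the proliferation marker, stood at 6.30, 63.4, 8.62, 11.6 and 8.41 CPM against 1.01 to 9.65 CPM (median 1.86). Replicate 2 was far above the rest, and without it the log2 change was 1.39 (adjusted p = 0.0528). The other 4 pregnant libraries were above 5 of the non-pregnant ones, at 1.01 to 3.98 CPM, and 3 of the 4 were below non-pregnant replicate 6, at 9.65 CPM. Ccnd1, cyclin D1, fell by 1.13 ± 0.25 with overlap. Myc was not called (log2 0.65, adjusted p = 0.456).

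Of 32 acute phase genes, 14 rose with all libraries and 6 in both fits, against 5.49% and 3.78% of all genes. Itih4, an inter-alpha-trypsin inhibitor, was one of the 6: it stood at 2629, 3920, 10061, 7168 and 7845 CPM against 986 to 1967 CPM (median 1051) and rose by 2.40 ± 0.28, without overlap. Saa1, Saa2 and the iron-binding Lcn2 stood at 2049, 2156 and 884.6 CPM in replicate 2. In the other pregnant libraries they ranged over 16.4 to 26.1, 8.67 to 16.3 and 4.14 to 13.0 CPM, and none of the 3 was called without replicate 2. Of 40 interferon response genes 6 rose with all libraries and 1, the chemokine gene Cxcl11, in both fits. Cxcl10, another chemokine, stood at 345 CPM in replicate 2 and at 1.81 to 3.07 CPM in the other pregnant libraries.

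Calls among markers of other liver cells were counted per list. Over all genes, 5.49% were called higher and 3.52% lower, and 3.78% and 2.13% in both fits. None of 14 Kupffer cell, 13 T and NK cell, 11 B cell and 16 endothelial markers was called, and Prtn3 and Il1b, the 2 called of 7 neutrophil and monocyte markers, were called only with replicate 2. Of 15 stellate cell and fibroblast markers, Col3a1, a fibrillar collagen, rose by 1.07 ± 0.23 and Lrat, which stores retinol, fell by 1.21 ± 0.23, both in both fits. Spp1, osteopontin, was the 1 of 8 bile duct markers called and fell in both fits, by 1.07 ± 0.24.

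**Figure D4:**
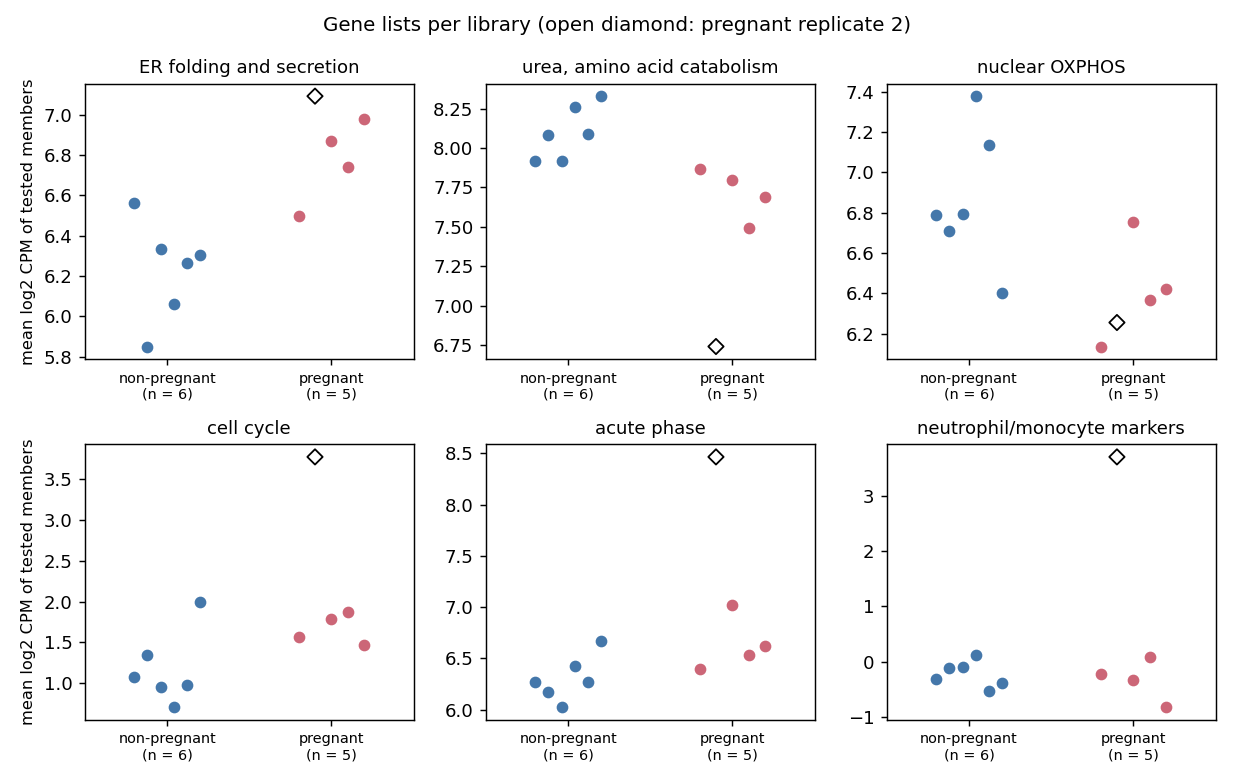
Mean log2 CPM over the tested members of 6 gene lists, with 1 point per library and an open diamond for pregnant replicate 2. That library is far above the other 10 for cell cycle, acute phase and neutrophil or monocyte genes and lowest for amino acid catabolism. The folding genes are raised in pregnant replicates 3 to 5 as well, and pregnant replicate 1 lies within the non-pregnant range.

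The age label split the pregnant mice, and the changes were recomputed within each label. For Prlr the ratio of pregnant to non-pregnant mean CPM was 3.06 at label 70 (2 against 2 mice) and 9.05 at label 77 (3 against 4). The ratios were 1.83 and 7.98 for Ghr, 14.4 and 47.4 for Serpina6, 6.29 and 17.6 for Lifr, and 3.32 and 9.07 for Cp. For these 5 genes the groups did not overlap over all conventional libraries, so they could not overlap within either label. Alb had ratios of 1.11 and 3.29, and overlapped at label 70. With the age label as a term in a fit of the conventional libraries, Prlr, Ghr, Serpina6, Lifr and Cp remained called, and Alb was not (adjusted p = 0.0689). Pregnant replicate 2 carries label 70, so these ratios include it.

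The germ-free pregnancy comparison shares no library with the conventional one, although both were fitted with one estimate of the spread. In it 1139 genes were called higher (7.15%) and 574 lower (3.6%). Of the genes called in both conventional fits, 494 of 602 higher genes (82.1%) were also higher in germ-free pregnancy, and 213 of 339 lower genes (62.8%) were also lower. These are 43.4% of the germ-free higher calls and 37.1% of the lower ones, and no gene was called in opposite directions. Serpina16, Lifr, Prlr, Ghr, Serpina6 and Cp had log2 changes of 8.20, 3.91, 3.02, 2.95, 5.69 and 3.17 in germ-free mice. Of genes called in both conventional fits, Mup11, Mup1, Mup8, Pck1, Pnpla3 and Oat are examples not called in germ-free mice. Their log2 changes there had the same sign as in conventional mice, at -1.59, -1.815, -1.03, -0.30, 1.74 and -0.78.

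A direct test of the difference in pregnancy change between the microbiota groups called 0 of 15928 genes (0%) in edgeR, with 903 genes at an unadjusted p under 0.05. DESeq2 called 7 of 34868 genes, so its count is not over the same genes as edgeR's. Of these, Gm20708, Gm10925, Gm28661 and Rps23-ps1 had extreme log2 differences of 24.04, -30, -29.33 and -25.97. Whether these values rest on very few counts was not tested. The other DESeq2 calls were the fatty acid desaturase Scd1, the P450 gene Cyp2b13 (difference 2.18) and Sult4a1 (-6.14). The lowest adjusted p in edgeR was 0.0717, shared by Scd1 and Cyp2b13. Scd1 fell by 3.62 on the log2 scale in germ-free and by 1.55 in conventional mice, a difference of -2.06, and DESeq2 called it (difference -2.05, adjusted p = 8.63e-05). Without pregnant replicate 2, edgeR called Cyp2b13 alone (adjusted p = 0.0415).

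**Figure D5:**
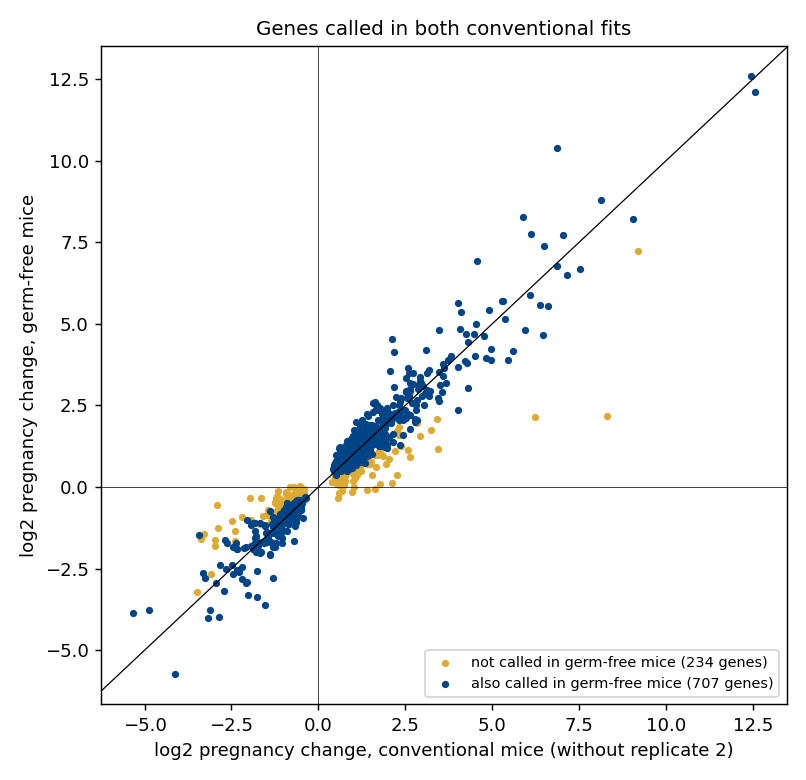
Log2 pregnancy change in conventional mice without replicate 2 (x axis) and in germ-free mice (y axis) for the 941 genes called in both conventional fits; the diagonal marks equal change. Of these, 707 were also called in germ-free mice, and nearly all points lie in the quadrants of equal sign.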

How the data were processed

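The authors deposited 1 table of estimated counts for 22 liver libraries, 1 per labelled mouse, with no scaling between libraries. Salmon 0.11.3, edgeR 3.24.3 and GRCm38.p6 are named in the submitters' processing notes; which annotation release was used is not given in the sources used here. The kit does not mark strand, so reads of overlapping or antisense genes cannot be told apart. All columns were matched to samples, and 99.93% of the 53392 identifiers to GENCODE M21 symbols.

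Counts were rounded, filtered (edgeR 4.0.16 default, minimum count 10, total 15), scaled by TMM and fitted with the quasi-likelihood model over all 22 libraries with 1 term per group; p-values were Benjamini-Hochberg adjusted over all genes tested, and every adjusted p comes from this fit, or from edgeR's same test with the library left out or the term added that its sentence names, unless another tool is named. P-values rest on a spread between mice that was estimated over all 22 libraries, germ-free ones included. Each value after ± is the absolute log2 change divided by the square root of the test's F statistic, and only approximates an SE. CPM refers to effective library sizes, and a prior count of 2 was used for log2 CPM of single libraries. Alternatives used DESeq2 1.42.0, limma 3.58.1 and other settings. On simulated data, 58% of 50 genes raised 2-fold and 76% of 50 raised 4-fold were recovered. Pairs of libraries of a group differed beyond counting noise.

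Genes named are the 8 higher and 8 lower with the largest change in both fits (official symbol, outside drug-processing names, at least 5 CPM, no overlap), up to 2 called per list, the 5 most abundant per direction, 6 called only with pregnant replicate 2, and 19 set ones; others are marked where named or stand in a list. Of the genes so chosen, 3 are not reported here. The members and lists were chosen with earlier results of these data known. Counting intervals are exact binomial at 95% and cover counting error only. Deviations of same-numbered pregnant and non-pregnant libraries from their group means had correlations of -0.26 to 0.16, highest for replicate 2. No label says that the numbers pair mice, and such correlations cannot exclude it.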

Additional observations from a re-analysis of the deposited data

Results flagged for a closer look

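For each gene reported by the rule, the highest and lowest library of each conventional group was tested for its distance from the rest of the group with Dixon's criterion on log2 CPM. It picked out a library in 29 of 196 groups. The count is a description and cannot be set against a chance rate, since genes were partly chosen by how they behaved in these libraries. Pregnant replicate 2 accounts for 16 of them, 6 in genes chosen for being called only with it, non-pregnant replicate 6 for 5 and pregnant replicate 1 for 4.

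Pregnant replicate 2 was far above the other pregnant libraries for acute phase and inflammatory genes: Saa3 at 831.6 CPM, Saa2 at 2156 CPM, Saa1 at 2049 CPM, Lcn2 at 884.6 CPM, Cxcl10 at 345.4 CPM, Cxcl9 at 491.2 CPM, Prtn3 at 26.22 CPM and Socs1 at 36.24 CPM. It was also far above them for the proliferation genes Mki67 (63.42 CPM) and Rrm2 (30.16 CPM), for the folate enzyme gene Mthfd2 (20.79 CPM), for Fgf21 (25.91 CPM) and for the collagen gene Col3a1 (105.9 CPM). It was far below them for Mfsd2a (0.3502 CPM), the urinary protein gene Mup22 (335.8 CPM) and Hpd, an enzyme of tyrosine breakdown (497.8 CPM).

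Non-pregnant replicate 6 was far above the other non-pregnant libraries for C9 (251.5 CPM), Cfi (749.5 CPM), Ddx18 (11.22 CPM), Trf (17591 CPM) and Itih4 (1967 CPM). Non-pregnant replicate 5 was high for Serpina16 at 0.06304 CPM, with the others at 0, and low for Lrat at 9.519 CPM. Pregnant replicate 1 was low for Crybb3 (5.68 CPM) and Smox (7.172 CPM) and high for the vasopressin receptor gene Avpr1a (21.68 CPM) and for Esr1 (49.58 CPM). Pregnant replicate 4 was low for Ndufs7 at 25.11 CPM, and pregnant replicate 5 was high for Igf1 at 907.1 CPM.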

How the results depend on the processing

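The count of higher genes was 875 and fell to 497 with the conventional libraries alone, 571 with the age label added to that fit and 518 without pregnant replicate 2 in it (the last chosen after seeing the data); fewer libraries then estimate the spread. The count of lower genes was 561, and 892 in DESeq2. The other settings moved neither count by over 1.5 times. Leaving out 1 library in turn gave 659 to 1134 higher genes and 377 to 668 lower ones, highest in both directions without non-pregnant replicate 6. The lowest count of higher genes came without non-pregnant replicate 5, and of lower genes without pregnant replicate 2. Leaving out a non-pregnant library could cost about as many calls as leaving out pregnant replicate 2. The counts were 664 and 383 without non-pregnant replicate 4, and 669 and 377 without pregnant replicate 2. The replicate block, fitted although no label says that the numbers pair mice, gave 733 higher and 470 lower genes. Of 92 called genes chosen by the rule, 59 kept their call whichever library was left out. Without pregnant replicate 2, 21 lost it with their direction kept. With the conventional libraries alone 26 lost it, and 24 with the age label added to that fit. The replicate block lost 23 of these calls, and limma with sample quality weights 15.

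Some genes changed sign, all when pregnant replicate 2 was left out or given less weight. Over the fits leaving out 1 library, the log2 change ranged from -0.77 to 3.95 for Socs1, -0.07 to 5.21 for Saa2, -0.35 to 4.99 for Cxcl10, -1.60 to 4.85 for Prtn3, -0.16 to 4.82 for Lcn2 and -0.37 to 4.42 for Saa1, each lowest without pregnant replicate 2. DESeq2 without that library, chosen after seeing the data, gave -0.81 for Socs1, -0.10 for Saa2, -0.39 for Cxcl10, -0.019 for Cxcl9, -1.68 for Prtn3, -0.19 for Lcn2 and -0.39 for Saa1. The conventional libraries alone without it gave -0.79 for Socs1, -0.084 for Saa2, -0.37 for Cxcl10, -0.0035 for Cxcl9, -0.17 for Lcn2 and -0.38 for Saa1. With limma's sample quality weights, Socs1 had -0.39 and Prtn3 -0.60.

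The counts allow a 2-fold change to be missed: on simulated data 58% of 50 genes raised 2-fold were called. Genes with few counts in 1 group are given with counting intervals.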
